A study of Mus musculus with 20 samples.

Results

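The 9 genes described are satellite cell, myogenic and fusion factors: Pax7, Calcr, Cdh15, Myf5, Myod1, Myog, Myf6, Mymk and Mymx. They are the rows of the gene table that carry these names, 9 of 22660 rows. RNA was sequenced from the plantaris, a calf muscle rich in fast fibres, of old male C57BL/6J mice (2 years per the labels), with 1 library from the whole muscle of each mouse. The 20 mice formed 4 groups of 5, since sham and MOV surgery were each followed by vehicle or by D + Q. MOV is mechanical overload, in which part of the soleus and gastrocnemius of both legs was cut away so that the plantaris carried their load, and in sham mice the skin was opened and these muscles were left whole. D + Q is a senolytic mixture, meant to clear senescent cells, of 5 mg/kg dasatinib, a tyrosine kinase inhibitor, and 50 mg/kg quercetin, a plant flavonoid. It or its vehicle, polyethylene glycol, was given by gavage on days 7 and 10 after surgery, and muscle was taken on day 14. For sham mice the deposited design text gives the second gavage as day 14, while the treatment notes of every sample give day 10. Every group was old, so no value here compares ages, and the mice differ between groups.

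Satellite cells are the stem cells of skeletal muscle and lie between a fibre and its basal lamina. When a muscle is injured or loaded they leave rest, divide as myoblasts, and then stop dividing, differentiate and fuse with one another or with a fibre. The myogenic regulatory factors Myf5, Myod1, Myog and Myf6 are related transcription factors that bind DNA at the E-box, the letters CANNTG, and act in overlapping order along this course. Fibres also transcribe several of these factors themselves, so their RNA in whole muscle does not come from satellite cells alone, and in such bulk samples fewer cells of a type and less RNA per cell cannot be told apart.

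Levels are in CPM, the counts of a gene scaled to a common library total per mouse after TMM scaling, which corrects the totals for a few abundant genes that differ between libraries. Libraries held 17887532 to 26234518 counts. TMM factors were 0.83 to 0.885 in sham and 1.06 to 1.23 in MOV mice, and with total counts alone the median gene sat 0.38 higher on the log2 scale in MOV against sham with vehicle and 0.36 higher with D + Q. The genes of the muscle fibre list (8 genes, among them Acta1, Ckm and Myh4) summed to 157477 to 182875 CPM in sham and 88529 to 122855 CPM in MOV mice, and the 8 fibro-adipogenic progenitor genes summed to 437 to 1081 CPM in sham and 4690 to 11529 CPM in MOV mice. On the first principal component, which held 69.2% of the variance, the mouse numbered 2 of vehicle MOV lay nearest the sham mice (36.1, against 58.4 to 83.3 in the other MOV mice).

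Promoter sequence was at hand for 5 of the 9 genes (Pax7, Calcr, Cdh15, Myf5 and Myog) in RefSeq windows of assembly GRCm38.p6, which run from 250 bases before to 50 bases after a start site. Myog, Myf5 and Cdh15 are shown because the first is the target gene of the other factors in differentiation and rose most of the 3, the second rose with no E-box in the window, and the third held the most E-boxes and was not called higher with TMM scaling, though it was with total counts alone and vehicle. Capitals mark E-boxes and, in Myog, the letters CTATATTTA, which were picked after the window had been read.
Myog, chr1:134289754-134290053, plus strand: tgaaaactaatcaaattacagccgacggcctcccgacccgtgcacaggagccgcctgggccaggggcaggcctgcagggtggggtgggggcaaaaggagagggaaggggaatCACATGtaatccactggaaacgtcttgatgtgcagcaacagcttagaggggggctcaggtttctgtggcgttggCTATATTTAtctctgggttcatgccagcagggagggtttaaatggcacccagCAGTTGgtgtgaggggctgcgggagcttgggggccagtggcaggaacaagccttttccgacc
Myf5, chr10:107486085-107486384, minus strand: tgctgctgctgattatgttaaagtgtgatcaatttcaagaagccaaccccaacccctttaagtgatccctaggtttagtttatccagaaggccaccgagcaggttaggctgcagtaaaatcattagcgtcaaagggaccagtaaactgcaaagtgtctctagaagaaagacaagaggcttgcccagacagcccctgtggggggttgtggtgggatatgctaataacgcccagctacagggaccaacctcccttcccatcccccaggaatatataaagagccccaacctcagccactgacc
Cdh15, chr8:122848124-122848423, plus strand: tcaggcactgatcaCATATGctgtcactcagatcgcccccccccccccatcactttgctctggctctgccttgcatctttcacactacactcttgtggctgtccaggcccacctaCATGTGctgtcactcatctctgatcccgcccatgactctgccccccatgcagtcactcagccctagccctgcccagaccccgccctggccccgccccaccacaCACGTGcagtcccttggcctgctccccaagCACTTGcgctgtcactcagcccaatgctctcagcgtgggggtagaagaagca
The Myog window held 2 E-boxes, which begin 138 and 12 bases before the start site, and CTATATTTA began 64 bases before it. The Cdh15 window held 4 E-boxes, the Myf5 and Pax7 windows 0, and the 2 Calcr windows 0 and 1. Both strands were searched, and CANNTG reads alike in form on each. Of 32851 promoter windows of the same length, 72.3% held an E-box, 6.49% held 4 or more, and 0.195% held CTATATTTA. A match is a description of the letters and no evidence of binding in these mice.

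Pax7, the transcription factor that marks satellite cells, was higher in MOV than in sham muscle with either treatment. With vehicle, the 5 sham mice had 1.47, 0.92, 2.61, 1.39 and 2.88 CPM and the 5 MOV mice had 3.83, 3.11, 4.54, 3.37 and 4.83 CPM. Every MOV mouse lay above every sham mouse, and the fold was 2.14 (95% interval 1.43 to 3.22; log2 fold change 1.10, SE 0.276, adjusted p = 0.00293 in edgeR's quasi-likelihood test). With D + Q, the sham mice had 3.77, 2.68, 2.53, 2.18 and 2.23 CPM and the MOV mice 5.54, 5.10, 2.68, 4.80 and 3.14 CPM. The groups overlapped here, since the MOV mice numbered 3 and 5 fell below the highest sham mouse. The fold was 1.64 (interval 1.18 to 2.26; log2 fold change 0.71, SE 0.222, edgeR adjusted p = 0.00929), and a two-sided exact permutation test of the log2 CPM gave p = 0.0556. Pax7 lies on the minus strand of chromosome 4 (GRCm39, chr4:139464373-139560839).

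Calcr, the calcitonin receptor of resting satellite cells, was at low levels in every group and was not called in any comparison that tested it. It had 1 to 18 counts in each vehicle sham mouse, 6 to 14 in each D + Q sham mouse, 4 to 11 in each vehicle MOV mouse and 4 to 23 in each D + Q MOV mouse. Its mean level was 0.479 ± 0.299 CPM in vehicle sham, 0.592 ± 0.195 in D + Q sham, 0.33 ± 0.125 in vehicle MOV and 0.44 ± 0.281 in D + Q MOV mice (SD, n = 5 each). All 4 groups overlapped. With vehicle it missed the minimum of 10 counts in 5 mice and was not tested, and with D + Q the log2 fold change of MOV against sham was -0.35 (interval -1.26 to 0.56, edgeR adjusted p = 0.489), and 0.0042 with total counts alone. It moved to -0.79 without D + Q MOV 1, to -0.53 without D + Q sham 4 and to -0.17 without D + Q MOV 5, and to -0.23 or -0.24 without D + Q MOV 4 or D + Q sham 2. The difference between Calcr and Pax7 was not tested.

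Cdh15 encodes M-cadherin, an adhesion protein at the contact of satellite cell and fibre. Vehicle sham mice had 24.4, 21.4, 22.1, 28.1 and 23.1 CPM and vehicle MOV mice 25.6, 24.5, 21.5, 22.4 and 25.7 CPM. These ranges lay over each other, and the log2 fold change was 0.014 (interval -0.17 to 0.20, edgeR adjusted p = 0.903), but 0.39 with total counts alone, which was called (edgeR adjusted p = 0.00143). D + Q sham mice had 21.7, 21.0, 23.9, 25.6 and 24.9 CPM and D + Q MOV mice 18.9, 20.5, 15.7, 20.5 and 22.5 CPM. The fall of 4 of 5 D + Q MOV mice below all D + Q sham mice gave a log2 fold change of -0.22 (SE 0.0912, edgeR adjusted p = 0.0452). That call turned to 0.15 with total counts alone (edgeR adjusted p = 0.153) and was lost when the D + Q sham mouse numbered 3, 4 or 5 or the D + Q MOV mouse numbered 1 or 3 was left out (edgeR adjusted p = 0.0762, 0.11, 0.101, 0.0844 and 0.112). Cdh15 lies at chr8:123574705-123596048 of GRCm39.

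**Figure D1:**
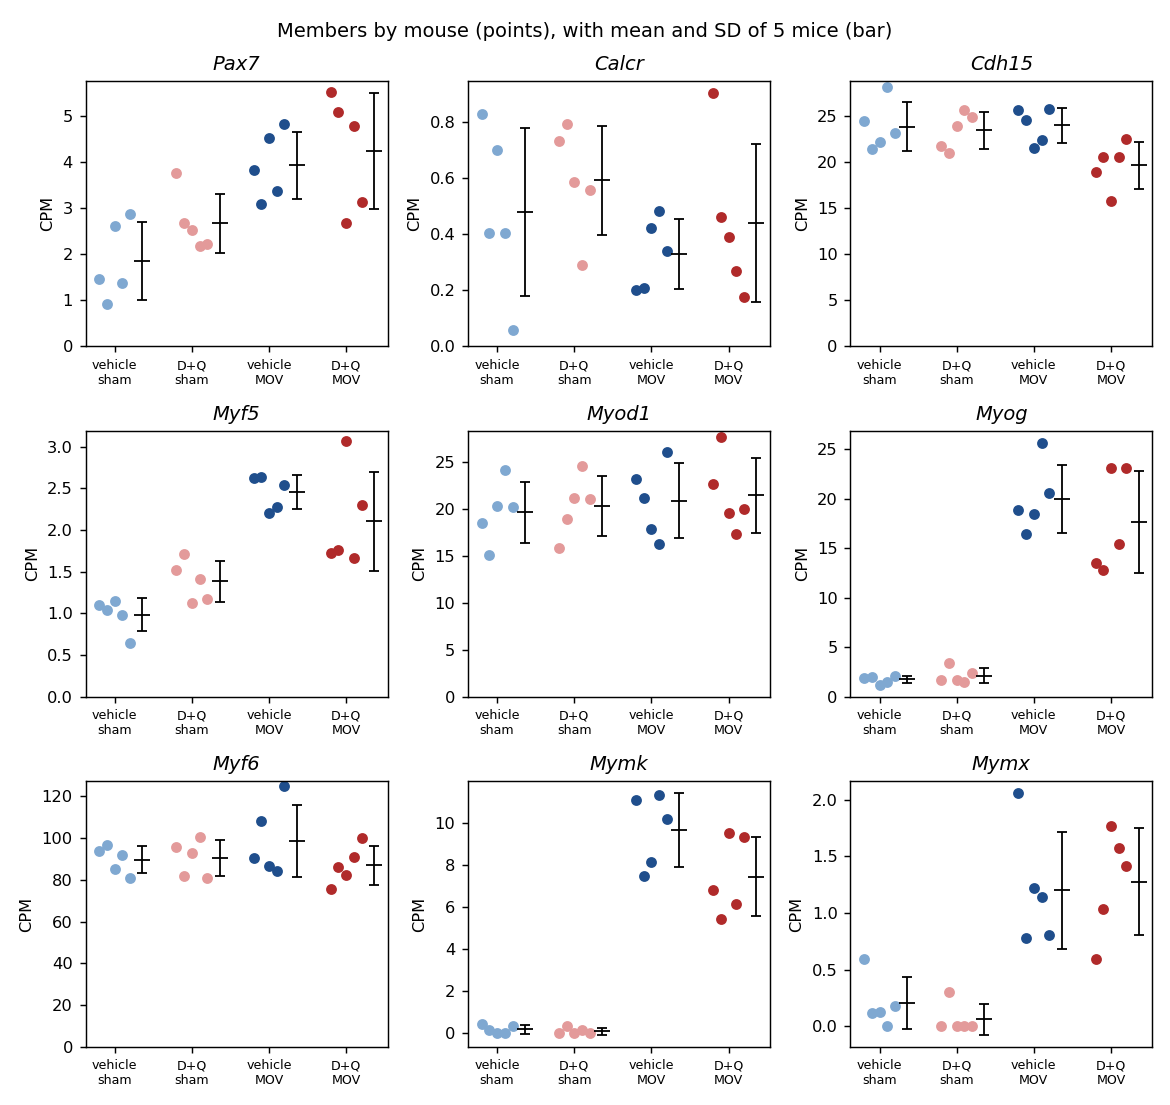
CPM of the 9 genes (vertical axes, each with its own scale) in each of 20 mice by group (horizontal axis), with points for mice and a bar for the mean and SD of 5 mice. Myog, Mymk and Mymx separate MOV from sham with either treatment, Pax7 and Myf5 with vehicle, while Myod1, Myf6 and Calcr overlap. CPM carry TMM scaling, without which the MOV groups of Cdh15, Myod1 and Myf6 would lie higher against sham.

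Myf5 and Myod1 are the factors that commit cells to the muscle lineage. Myf5 was called higher in MOV muscle with either treatment, Myod1 only with total counts alone, and the difference between the genes was not tested. Myf5 was at 1.10, 1.04, 1.15, 0.984 and 0.646 CPM in vehicle sham mice and at 2.62, 2.64, 2.20, 2.28 and 2.54 CPM in vehicle MOV mice. The MOV mice sat close together and all above the sham mice, with a fold of 2.50 (interval 1.79 to 3.48; log2 fold change 1.32, SE 0.226, edgeR adjusted p = 0.000132). With D + Q, Myf5 was at 1.52, 1.71, 1.12, 1.41 and 1.17 CPM in sham and at 1.73, 1.77, 3.07, 1.66 and 2.30 CPM in MOV mice. Here 4 of 5 MOV mice exceeded every sham mouse and the one numbered 4 did not, and the log2 fold change was 0.64 (SE 0.241, edgeR adjusted p = 0.0259). The call with D + Q was lost without the D + Q sham mouse numbered 3 or 5 (edgeR adjusted p = 0.0593 and 0.0584) or the D + Q MOV mouse numbered 3 or 5 (0.107 and 0.0535). Leaving out D + Q MOV 3, the highest, lowered the log2 fold change to 0.46.

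Myod1 had 18.5, 15.1, 20.3, 24.1 and 20.2 CPM in vehicle sham and 23.2, 21.1, 17.9, 16.2 and 26.03 CPM in vehicle MOV mice. It had 15.9, 18.9, 21.1, 24.6 and 21.0 CPM in D + Q sham and 22.6, 27.7, 19.6, 17.3 and 20.0 CPM in D + Q MOV mice. The 4 ranges overlapped throughout. The log2 fold change of MOV against sham was 0.098 with vehicle (interval -0.20 to 0.40, edgeR adjusted p = 0.566) and 0.12 with D + Q (interval -0.17 to 0.40, edgeR adjusted p = 0.45), and it was called higher with total counts alone (0.47 and 0.48, edgeR adjusted p = 0.00694 and 0.00383). Myod1 (chr7:46025870-46028526), Myf5 (chr10:107318769-107321995) and its neighbour Myf6 (chr10:107328712-107330656) overlap no other annotated gene.

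Myog and Myf6 are the factors of differentiation and of mature fibres. Myog, which switches on the contractile genes of new muscle cells and is also transcribed in denervated fibres, had 1.84, 1.96, 1.21, 1.51 and 2.11 CPM in vehicle sham mice and 18.8, 16.5, 18.4, 25.6 and 20.6 CPM in vehicle MOV mice. D + Q sham mice had 1.67, 3.35, 1.71, 1.46 and 2.34 CPM and D + Q MOV mice 13.5, 12.8, 23.1, 15.5 and 23.1 CPM. The lowest MOV mouse lay well above the highest sham mouse. The fold was 11.6 with vehicle (interval 9.11 to 14.7; log2 fold change 3.53, SE 0.161, edgeR adjusted p = 8.38e-10) and 8.69 with D + Q (interval 5.90 to 12.8; log2 fold change 3.12, SE 0.255, edgeR adjusted p = 4.16e-07). In absolute size these changes stood at the 98.4 and 97.5 percentile of all genes tested. Myog (chr1:134217707-134220287) overlaps an antisense non-coding gene, Gm32221, that was not among the tested rows.

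Myf6, also called MRF4 and the most abundant of the 4 factors in resting muscle, had 93.9, 96.5, 85.0, 91.8 and 80.9 CPM in vehicle sham and 90.3, 108, 86.6, 84.4 and 125 CPM in vehicle MOV mice. D + Q sham mice had 95.9, 82.1, 92.8, 101 and 80.9 CPM and D + Q MOV mice 75.4, 86.1, 82.3, 91.2 and 100 CPM. Sham and MOV mice were mixed in both sets. The log2 fold change of MOV against sham was 0.15 with vehicle (interval -0.07 to 0.36, edgeR adjusted p = 0.221) and -0.018 with D + Q (interval -0.18 to 0.15, edgeR adjusted p = 0.856), and with total counts alone it was 0.52 and 0.35 and called (edgeR adjusted p = 0.000126 and 0.000872).

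Mymk and Mymx, the membrane proteins myomaker and myomixer that myoblasts need to fuse, were near 0 in sham and present in every MOV mouse. Mymk had 10, 3, 0, 0 and 6 counts in vehicle sham and 0, 6, 0, 3 and 0 counts in D + Q sham mice. In MOV it had 275, 144, 174, 259 and 241 counts with vehicle, which are 11.1, 7.46, 8.14, 11.3 and 10.2 CPM, and 173, 141, 220, 137 and 211 counts with D + Q, which are 6.79, 5.41, 9.50, 6.14 and 9.34 CPM. No sham mouse came near an MOV mouse. From the counts summed over 5 mice, the MOV level was 45.8-fold the sham level with vehicle (95% counting interval 29.2 to 76.4) and 78.9-fold with D + Q (41.4 to 173), intervals that cover counting error only. The fitted log2 fold change was 5.48 (SE 0.41, edgeR adjusted p = 1.62e-07) and 6.26 (SE 0.471, edgeR adjusted p = 4.31e-08). Because it rests on so few sham counts, the fitted value moved to 6.12 without vehicle sham 1 and to 7.46 without D + Q sham 2, the mice with the most counts. Mymk (chr2:26951627-26962228, minus strand) overlaps the protein-coding Adamtsl2 on the plus strand, and the strand of the library is not given in the sources used here, so reads of the shared stretch cannot be told apart. Adamtsl2 also rose, with a log2 fold change of 1.76 (edgeR adjusted p = 0.00156) with vehicle and 2.08 (edgeR adjusted p = 8.19e-06) with D + Q. What part of the Mymk counts came from reads of Adamtsl2 was not tested.

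Mymx had 13, 2, 2, 0 and 3 counts in vehicle sham mice and 51, 15, 26, 26 and 19 counts in vehicle MOV mice. With D + Q it had 0, 5, 0, 0 and 0 counts in sham and 15, 27, 41, 35 and 32 counts in MOV mice. On the CPM scale every MOV mouse exceeded every sham mouse of its treatment, although vehicle sham 1 (0.597 CPM) came close to the lowest vehicle MOV mouse (0.777 CPM). Summed counts gave 5.45-fold (counting interval 3.40 to 9.21) with vehicle and 24.2-fold (10.1 to 75.5) with D + Q. The fitted log2 fold changes were 2.45 (SE 0.558, edgeR adjusted p = 0.00146) and 4.48 (SE 0.703, edgeR adjusted p = 2.79e-05), and they were 3.46 without vehicle sham 1 and 7.84 without D + Q sham 2. Without that mouse every remaining D + Q sham mouse was at 0, so the last value depends on the prior count of the fit and is no bound. Mymx (chr17:45911239-45913028) overlaps the antisense non-coding gene Gm56882.

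**Figure D2:**
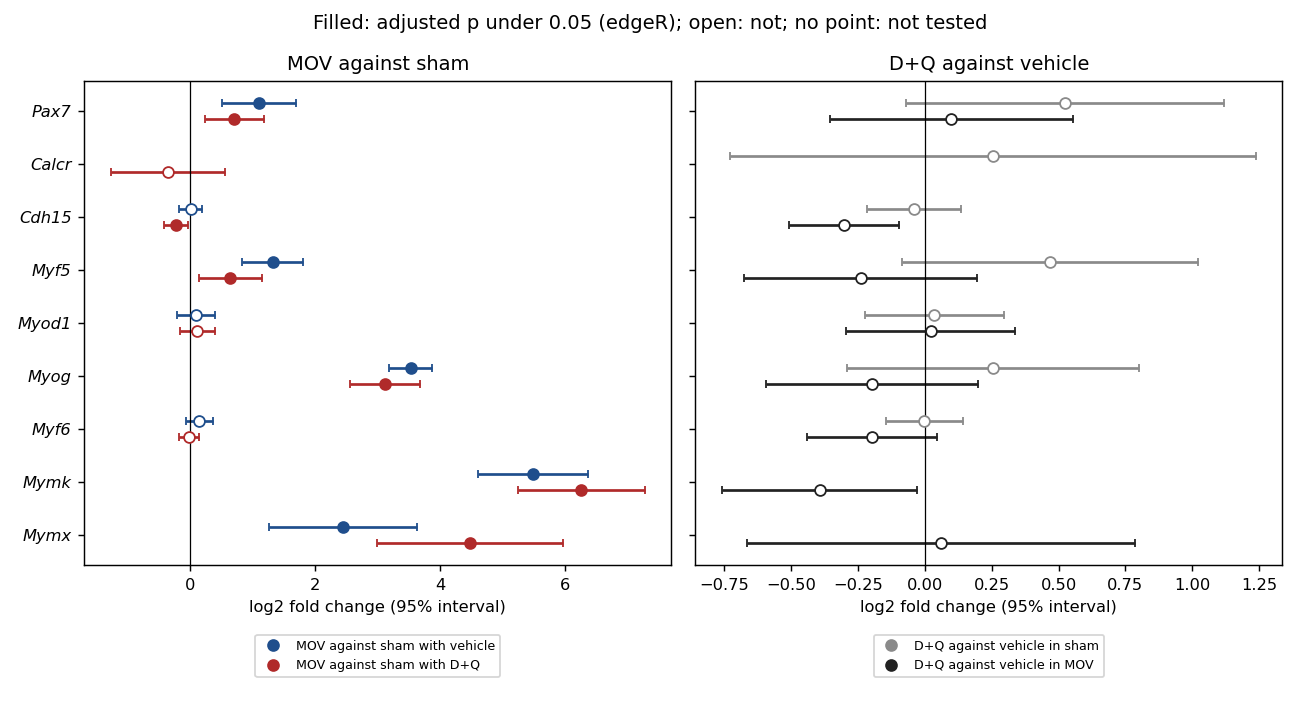
Log2 fold changes (horizontal axes) with 95% intervals from edgeR for the 9 genes (vertical axis), for MOV against sham (left) and D + Q against vehicle (right), filled where the adjusted p was under 0.05. The 5 filled rises with either treatment are Pax7, Myf5, Myog, Mymk and Mymx, and Cdh15 with D + Q is the filled fall, which lies above 0 with total counts alone, as Cdh15, Myod1 and Myf6 do with vehicle. Every point of the right panel is open.

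Across the 9 genes, 8 were tested between vehicle MOV and vehicle sham mice, and 5 were called higher, 0 lower and 3 neither. Of all 14601 genes tested, 60.5% were called in either direction, 30.7% higher and 29.8% lower. The 5 of 8 genes called thus lay near the share of all genes in either direction. The same 5 genes had groups that did not overlap, as had 46.4% of all genes. With total counts alone 8 of the 8 were called higher, but so were 7683 of all genes, against 1453 lower. With D + Q, 9 were tested, and 5 were called higher and 1 lower, against 65.3% of 14913 genes in either direction, 34.4% higher and 30.9% lower. Groups did not overlap for 3 of them (Myog, Mymk and Mymx), against 53% of all genes. With total counts alone 7 of the 9 were called higher and 0 lower, beside 8392 higher and 1654 lower of all genes. The median log2 fold change over the tested genes was 1.21 with vehicle and 0.64 with D + Q, where that of all genes was -0.015 and 0.023. With TMM scaling the genes called higher were the same 5 with vehicle and with D + Q. Of these, Mymk and Mymx met the minimum of 10 counts in 5 mice only through their MOV mice, so a rise was built into their being tested. They also enter the counts of separate groups and the medians above. With 10 counts required in every mouse, 3 of 6 tested genes were called higher with vehicle and 3 of 6 with D + Q. In that setting 7543 and 8324 of all genes were called in either direction. Their share of the genes tested was not worked out, so the 3 of 6 cannot be set against it.

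The levels of different genes were set side by side as CPM per kilobase of merged exon length, a scale on which Myf6 stood first in all 4 groups, with medians of 60.8 to 65.6. In vehicle sham mice Myod1 followed at a median of 10.7, Cdh15 at 4.45, Myog at 1.21, Myf5 at 0.497 and Pax7 at 0.251, and from Myf6 down to Myf5 no neighbours in this order overlapped. Myf5 overlapped Pax7, and Pax7, Mymk, Calcr and Mymx overlapped in turn. The order in D + Q sham mice was the same from Myf6 to Pax7. In vehicle MOV mice Myog (median 12.4) and Myod1 (11.2) overlapped in their ranges, as did Mymk (6.50) and Cdh15 (4.72). In D + Q MOV mice Myod1 (10.6) overlapped Myog (10.2) and Mymk (4.33) overlapped Cdh15 (3.95). Myog and Mymk thus moved up the order by level, while the place of Myf6 was as in sham.

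**Figure D3:**
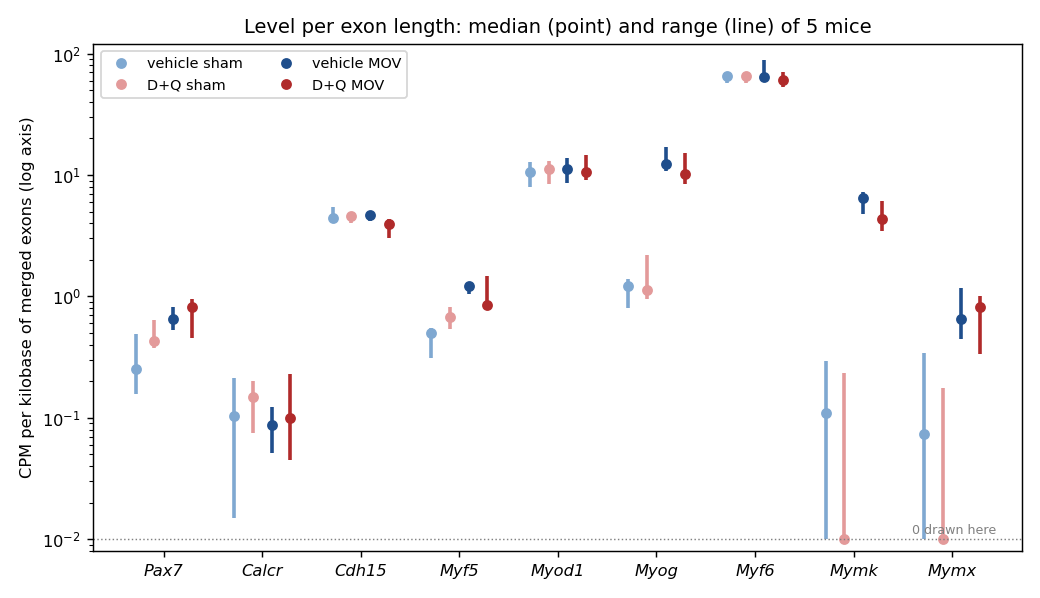
Median (point) and range (line) over 5 mice of the level in CPM per kilobase of merged exons, on a log axis, for the 9 genes by group, with levels of 0 drawn at the dotted line. Myf6 is highest in every group, and Myog and Mymk in MOV reach the ranges of Myod1 and Cdh15.

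As a share of the summed per-kilobase level of the 4 myogenic factors, Myog took a median of 1.56% in vehicle sham and 1.43% in D + Q sham mice and 13.8% and 12.1% in the MOV mice of the same treatments. Myf6 took 83.3% and 82.9% in sham and 73.0% and 71.8% in MOV mice. The ranges of these shares did not overlap between sham and MOV, since Myog lay at 1.11% to 3.11% in sham and at 9.98% to 19.6% in MOV. These shares do not depend on the scaling of the libraries. The ratio of Myog to Myod1 counts rose from a median of 0.0995 in vehicle sham to 0.811 in vehicle MOV mice and from 0.106 to 0.891 with D + Q. The ratio of Myog to Pax7 counts had medians of 1.08 and 0.673 in sham and 4.92 and 3.22 in MOV mice.

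D + Q against vehicle was compared within each surgery to ask whether the senolytic mixture altered these genes. In sham muscle 7 of the 9 were tested, 0 were called by edgeR and 0 by DESeq2, which gave 4 of them an adjusted p, and 0 had an unadjusted p under 0.05, where 0.215% of 13926 genes were called and 2.05% had groups that did not overlap. Mymk and Mymx had too few counts. Over all genes DESeq2 called 133. Myf5 was at 0.983 ± 0.198 CPM in vehicle sham and 1.38 ± 0.244 CPM in D + Q sham mice (SD, n = 5 each), and 4 of 5 D + Q mice lay above all vehicle mice. Its log2 fold change was 0.47 (SE 0.263, interval -0.09 to 1.02, edgeR adjusted p = 0.571), and the two-sided exact permutation test, unadjusted, gave p = 0.0159. Pax7 was at 1.85 ± 0.846 and 2.68 ± 0.642 CPM (SD, n = 5 each). The log2 fold change of Pax7 was 0.52 (interval -0.07 to 1.12, edgeR adjusted p = 0.548). For Cdh15, Myod1 and Myf6 the intervals ran from -0.23 to 0.29 at the widest.

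In MOV muscle 8 of the 9 were tested and 0 were called by edgeR or DESeq2, with 2 at an unadjusted p under 0.05. Over all 15238 genes 0% were called by edgeR's quasi-likelihood test, 1340 had an unadjusted p under 0.05, DESeq2 called 11, and 1.44% had groups that did not overlap. The 2 genes were Cdh15 and Mymk. Cdh15 was at 23.9 ± 1.93 CPM in vehicle MOV and 19.6 ± 2.52 CPM in D + Q MOV mice (SD, n = 5 each), with a log2 fold change of -0.30 (SE 0.0963, interval -0.51 to -0.10, unadjusted p = 0.00701 and adjusted p = 0.523 in edgeR; two-sided exact permutation p = 0.0238). Mymk was at 9.64 ± 1.75 and 7.44 ± 1.88 CPM (SD, n = 5 each), with a log2 fold change of -0.39 (SE 0.171, interval -0.76 to -0.03, unadjusted p = 0.0363 and adjusted p = 0.547 in edgeR; two-sided exact permutation p = 0.0952). Myog had 20.0 ± 3.47 and 17.6 ± 5.13 CPM (SD, n = 5 each; log2 fold change -0.20, interval -0.60 to 0.20). Pax7 had 3.93 ± 0.737 and 4.25 ± 1.26 CPM (SD, n = 5 each; log2 fold change 0.098, interval -0.36 to 0.55).

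Whether the response to MOV itself differed between D + Q and vehicle was tested as an interaction over all 20 mice, in which 0 of 9 genes were called, against 0.0127% of 15700. Myf5 had the lowest p (interaction -0.71 on the log2 scale, SE 0.309, unadjusted p = 0.0301, edgeR adjusted p = 0.823). The response of Mymx was larger with D + Q by 2.00 on the log2 scale (interval -0.20 to 4.19, edgeR adjusted p = 0.856), a value set by few sham counts, since it was 0.98 without vehicle sham 1 and 5.31 without D + Q sham 2. For Myog the interaction was -0.45 (interval -1.11 to 0.22) and for Mymk 0.74 (interval -1.15 to 2.62). Without vehicle sham 1 that of Mymk was 0.10, without D + Q sham 1, 3 or 5 it was 0.43, 0.41 and 0.42, and without D + Q sham 2, the mouse with the most Myog and Mymk of its group, it was 1.94 and that of Myog was -0.24. The sham counts of the fusion genes leave these intervals wide.

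Mice within D + Q MOV differed in these genes together. The mice numbered 3 and 5 had the lowest Pax7 (2.68 and 3.14 CPM) and the highest Myf5 (3.07 and 2.30), Myog (23.1 in both) and Mymk (9.50 and 9.34), while those numbered 1, 2 and 4 had more Pax7 (4.80 to 5.54) and less of the other 3. These 2 mice also lay highest of their group on the first principal component (81.4 and 81.0, against 59.8 to 67.1), and the part of this in the genes' values was not tested. Over the 10 MOV mice, with each group mean taken off the log2 CPM, Myog and Mymk had r = 0.887, Pax7 and Myog r = -0.718, and Pax7 and Myf5 r = -0.821. Over the 10 sham mice the same pairs had r = 0.646, -0.135 and -0.207, so both relations of Pax7 were weak there. Mymk had 0 counts in 2 vehicle sham and 3 D + Q sham mice, and at most 10 and 6 counts in the others. Its r with Myog in sham thus rests on values at the floor, which also enter the r over all 20 mice. Over all 20 mice they had r = 0.629, -0.36 and -0.46 (Spearman's rho 0.603, -0.353 and -0.331), and r = 0.492, -0.502 and -0.333 without the 2 mice farthest from the median of the first gene. In vehicle MOV, the mouse numbered 2 had the lowest Pax7 (3.11 CPM) and also the lowest Myog (16.5). The one numbered 4 had little Pax7 (3.37) and the highest Myog (25.6), so Pax7 and Myog showed no clear inverse relation in that group. Nor did Pax7 and Myf5, since vehicle MOV 5 had the highest Pax7 (4.83) and more Myf5 (2.54) than vehicle MOV 4 (2.28). The 3 pairs were those with the largest r in size over the MOV mice among 36 pairs of the 9 genes. The values of 1 mouse share a library and its scaling, and the correlations are given as descriptions without a test.

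**Figure D4:**
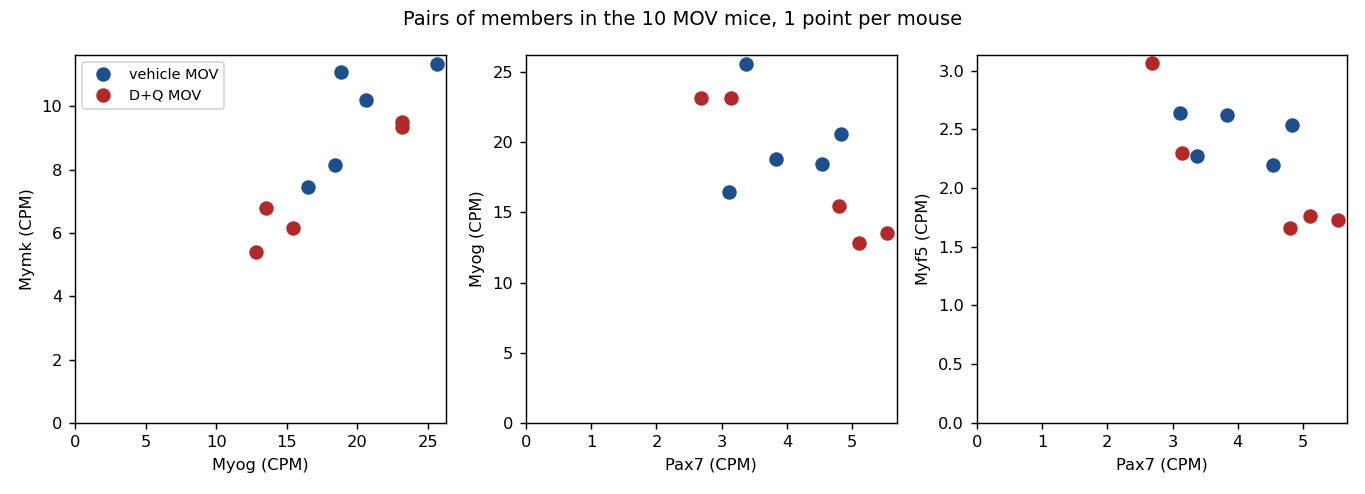
CPM of Mymk against Myog, Myog against Pax7 and Myf5 against Pax7 in the 10 MOV mice, 1 point per mouse, coloured by treatment. The 2 D + Q MOV mice with the lowest Pax7 have the highest Myog, Mymk and Myf5 of their group.

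Beside the 9 genes, 24 other genes of satellite cell identity and niche were listed. For this and the later lists, the shares of all genes called in MOV against sham were 30.7% higher and 29.8% lower with vehicle. With D + Q they were 34.4% and 30.9%. These shares hold for TMM scaling. With total counts alone, 7683 of 14601 genes were called higher and 1453 lower with vehicle. With D + Q, 8392 of 14913 were called higher and 1654 lower in that setting. With vehicle 18 of 23 tested rose and 1 fell in MOV, and with D + Q 19 rose and 1 fell, with median log2 fold changes of 0.77 and 0.94. With total counts alone these were 21 and 1, and 20 and 0. Ncam1, an adhesion molecule of activated satellite cells and of denervated fibres, rose by 2.85 with vehicle and 2.35 with D + Q on the log2 scale. Megf10, a receptor of proliferating satellite cells, rose by 2.65 and 2.57, and the zinc-finger gene Peg3 by 2.08 and 1.97. Met, the receptor for the hepatocyte growth factor that activates satellite cells, had log2 fold changes of -0.75 and -0.52 (edgeR adjusted p = 0.000211 and 0.00277), but of -0.37 and -0.16 with total counts alone, which kept the call with vehicle and lost it with D + Q (edgeR adjusted p = 0.0284 and 0.309).

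Of 24 partners and modulators of the myogenic factors, 12 rose and 10 fell with vehicle and 12 rose and 10 fell with D + Q, and with total counts alone these were 12 and 6, and 12 and 4. The transcriptional repressors Snai2 (log2 fold change 3.20 with vehicle, 2.10 with D + Q), Msc (2.36 and 2.91), which competes for E-boxes, and Snai1 (2.27 and 2.64) rose most. The largest falls were those of Eya1 (-0.86 and -0.87), a cofactor of sine oculis homeobox proteins, Six4 (-0.73 and -0.51) and the deacetylase Hdac4 (-0.72 and -0.49), which restrains Mef2 factors. With total counts alone these were -0.48 and -0.50, -0.35 and -0.15, and -0.34 and -0.13, and the calls of Six4 and Hdac4 with D + Q were lost (edgeR adjusted p = 0.113 and 0.0942).

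The adhesion and fusion machinery list (24 genes, of which Nphs1 was not among the rows) had 13 rises and 2 falls of 21 tested with vehicle and 14 and 3 with D + Q, or 19 and 1, and 17 and 1, with total counts alone. Cdh2, which encodes N-cadherin, rose by 2.53 and 2.89 on the log2 scale, Myof, a membrane repair protein used in myoblast fusion, by 2.37 and 2.41, and Kirrel by 1.99 and 1.95. Ano5 fell (-0.79 and -0.74, and -0.41 and -0.38 with total counts alone). Rac1, a GTPase of the actin skeleton, was called lower (-0.18 and -0.24), but its direction turned with total counts alone, to 0.19, which was called, and 0.12, which was not (edgeR adjusted p = 0.00546 and 0.0552).

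Genes of early differentiation and of embryonic fibres rose in 17 of 18 cases with vehicle and in 17 of 18 with D + Q, with medians of 3.50 and 3.19. Dlk1 rose by 6.13 and 5.03 on the log2 scale, the embryonic myosin Myh3 by 5.03 and 4.77 and the cardiac and embryonic troponin Tnnt2 by 4.58 and 4.52. Mybpc1, the slow myosin-binding protein, was called lower (-0.44 and -0.38), a call lost with total counts alone (-0.071 and -0.022, edgeR adjusted p = 0.457 and 0.778). Of 16 proliferation genes, 13 of 14 tested rose and 1 fell with vehicle (0 with total counts alone), and 14 of 15 rose and 0 fell with D + Q, with medians of 3.94 and 3.43. The mitotic kinase Aurkb rose by 5.55 and 4.11, Top2a by 5.03 and 4.43 and the cyclin Ccnb1 by 5.02 and 3.55. These genes mark dividing cells of any type.

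Since Myog is also a gene of denervated fibres, 14 denervation-responsive and synapse genes were read off too. With vehicle 7 rose and 5 fell, and with D + Q 6 rose and 5 fell, or 9 and 4, and 7 and 3, with total counts alone. Chrng, the fetal subunit of the acetylcholine receptor, rose by 4.45 and 3.95 on the log2 scale and Runx1 by 3.53 and 3.43. Chrng missed the count minimum between the sham groups, so a rise was built into its being tested too. Dach2, a repressor of Myog, fell by 1.76 and 1.35, and Musk, the receptor kinase of the synapse, fell by 0.87 and 1.31, or by 0.50 and 0.95 with total counts alone. Hdac4, also on this list, had log2 fold changes of -0.72 and -0.49, or -0.34 and -0.13 with total counts alone. Whether fibres were denervated was not tested. In the comparisons of D + Q with vehicle in sham, of D + Q with vehicle in MOV and of the interaction, edgeR called 0 genes of these 6 lists. In sham, DESeq2 called Ehd1 (0.38), Kirrel (0.45), Ehd2 (0.40) and Cdkn1c (0.38, log2 fold changes), of which edgeR's adjusted p was 0.083, 0.114, 0.0583 and 0.15, and total counts alone also called Ehd1 and Ehd2. Over all genes in that comparison, DESeq2 called 133 and total counts alone 49. Ehd1, Ehd2 and Cdkn1c were named after their values had been seen.

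**Figure D5:**
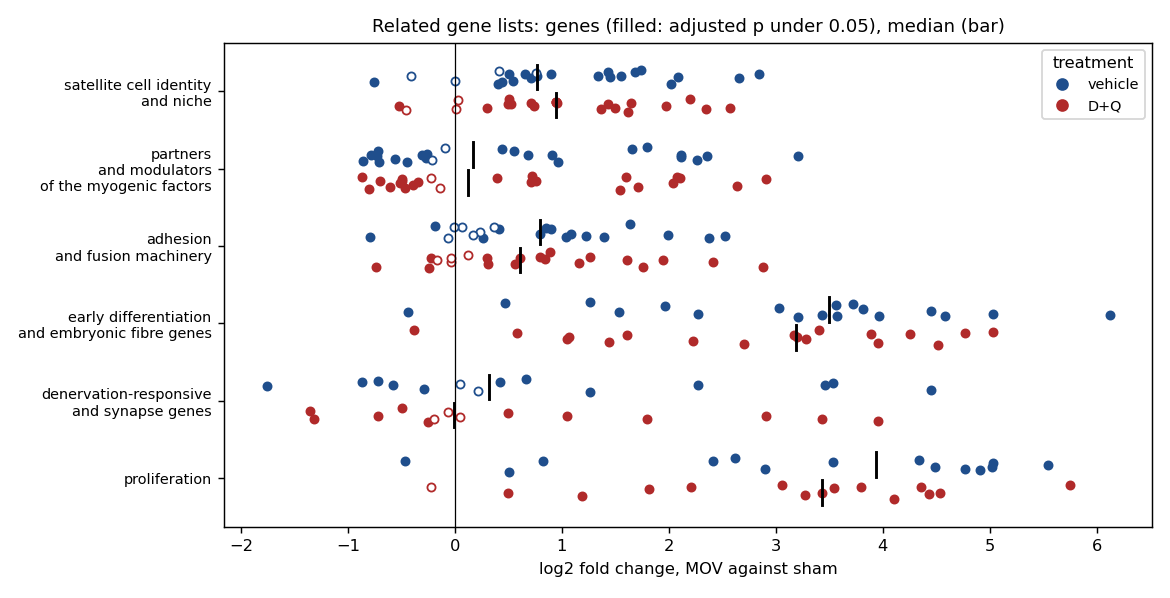
Log2 fold changes of MOV against sham (horizontal axis) for the genes of 6 related lists (vertical axis), 1 point per gene, blue with vehicle and red with D + Q, filled where the edgeR adjusted p was under 0.05, with a bar at each median. Early differentiation and proliferation genes have medians above 3, and the partners and the denervation list spread to both sides of 0, a split that shifts toward rises with total counts alone. Only 6 of the 16 proliferation genes met the count minimum between the sham groups, so a rise was built into the testing of the others.

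Markers of other cells were read off in the same contrast, in which 30.7% of all genes were called higher and 29.8% lower with vehicle. The 3 of 8 Schwann cell genes below lay near the share called higher. Between the sham groups, 6 of the 8 Schwann cell genes and 1 of the 6 T and B cell genes met the count minimum. For others of these 2 lists that were tested in MOV against sham, a rise was built in. In MOV against sham with vehicle, 7 of 8 macrophage genes rose (summed level 57.6 to 147 CPM in sham, 274 to 817 CPM in MOV), as did 8 of 8 fibro-adipogenic progenitor genes, 6 of 8 endothelial genes (156 to 214 and 263 to 288 CPM), 3 of 8 Schwann cell genes (30.3 to 54.3 and 48.5 to 107 CPM) and 3 of 6 smooth muscle and pericyte genes (285 to 355 and 357 to 453 CPM). Of the 3 adipocyte genes tested, 3 fell (4.33 to 14.9 and 1.90 to 4.20 CPM), 1 of 2 tested T and B cell genes rose (1.67 to 3.82 and 2.99 to 5.65 CPM), and of 8 muscle fibre genes 1 rose and 4 fell. With total counts alone 8 of 8 macrophage, 8 of 8 endothelial, 6 of 8 Schwann cell and 6 of 6 smooth muscle and pericyte genes rose, 2 of the 3 adipocyte genes fell, and of the muscle fibre genes 4 rose and 4 fell. In that setting 7683 of all 14601 genes were called higher and 1453 lower. With D + Q and TMM scaling, 8 of 8 macrophage, 8 of 8 fibro-adipogenic progenitor and 6 of 8 endothelial genes rose. Of 8 Schwann cell genes 3 rose and 1 fell, and of 6 smooth muscle and pericyte genes 3 rose and 1 fell. Only 1 of 3 adipocyte genes fell (4.87 to 14.1 CPM in sham, 2.52 to 6.52 CPM in MOV), and of 8 muscle fibre genes 1 rose and 5 fell. For each of these lists the sums in D + Q mice overlapped those in vehicle mice of the same surgery, with fibro-adipogenic progenitor genes at 4690 to 9539 CPM in vehicle MOV and 8492 to 11529 CPM in D + Q MOV mice. How far these shifts in the mix of cells account for the values of the 9 genes was not tested.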

How the data were processed

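Plantaris RNA was sequenced from 20 mice (n = 5/group). The authors aligned reads to GRCm39 with STAR 2.7.8a in Partek Flow 10.0 and quantified genes with Partek's expectation-maximization method against Ensembl release 103, and they deposited estimated counts without normalization, 1 column per mouse. Of the values, 29.8% were not whole, so they were rounded. Every row sums to at least 10.

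Comparisons used edgeR 4.0.16 in R 4.3.3 (quasi-likelihood test, robust, TMM scaling) on rows with at least 10 counts in at least 5 mice of the fit, with Benjamini-Hochberg adjustment over all rows and a call at an adjusted p under 0.05, which gives every adjusted p not credited to another tool. Each comparison used its own 10 mice and the interaction all 20, and the script was tested on simulated data. Exact permutation tests ran over the 252 divisions of 10 mice (smallest p = 0.00794). Alternatives were RLE factors, total counts, DESeq2 1.42.0, limma-voom (limma 3.58.1), other count minimums, unrounded counts, a replicate block, all 20 mice in one fit and each mouse left out. Within groups, the variance between libraries was at least 7.13 times the counting variance, more than repeat runs of 1 sample would give by counting alone. Counting each library as 1 mouse rests on the stated n = 5/group. Gene positions and exon lengths come from the GENCODE annotation of GRCm39.

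The members and gene lists were chosen with earlier results of these data known. Named genes were all members and, per list, up to 3 rises and 3 falls in MOV with vehicle, largest among called genes whose groups did not overlap, of which 1 is not reported here. For likeness, the 3 genes most correlated with Pax7, Myod1 and Myog were named, among rows with a mean of at least 1 CPM.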

Additional observations from a re-analysis of the deposited data

Results flagged for a closer look

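Mymx in the D + Q sham mouse numbered 2 stood apart from its group at 0.305 CPM, which is 5 counts, since the other 4 mice had 0. It stood out because the gap to the nearest other mouse equals the whole range of the group, a ratio of 1. With the other 4 mice at 0, any count above 0 gives that ratio, so the critical value of 0.71 for 5 mice and its chance rate do not apply to it. It was the 1 of 36 combinations of gene and group that passed that value. The same mouse had the most Mymk counts (6) and the highest Myog (3.35 CPM) of the D + Q sham mice.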

How the results depend on the processing

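Of 883 pairs of a gene's result and an alternative, 812 kept their direction and side of the threshold. The counts of genes called moved by more than 1.5 times in MOV against sham only: 8 with vehicle under total counts alone (5 otherwise), and 3 with either treatment when every mouse needed 10 counts, which left Calcr, Mymk and Mymx untested by construction. Under that minimum Cdh15 with D + Q also lost its call (-0.17, edgeR adjusted p = 0.118). Direction turned with total counts alone for Calcr (0.0042), Cdh15 (0.15) and Myf6 (0.35) in MOV against sham with D + Q and for Myod1 in the interaction (0.014). It turned with limma-voom for Myf6 in MOV against sham with D + Q (0.0024), for Myod1 (-0.0028) and Mymx (-0.18) in D + Q against vehicle in MOV, and for Calcr in the interaction (-0.10), and with 10 counts in every mouse for Myf6 in MOV against sham with D + Q (0.033). Myf6 in D + Q against vehicle in sham, near 0 throughout, turned under RLE (0.00022), total counts (0.034), DESeq2 (0.00024), no minimum (0.0032), 10 counts in every mouse (0.0036), all 20 mice in one fit (0.012) and the difference of means of the permutation test (0.012). The cause was not tested.

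Leaving out 1 mouse turned only differences that were not called. In MOV against sham, Cdh15 with vehicle ran from -0.024 to 0.080 and Myf6 with D + Q from -0.079 to 0.029. In D + Q against vehicle in sham, Myf6 ran from -0.040 to 0.036, Myod1 from -0.042 to 0.12, Cdh15 from -0.072 to 0.025 and Calcr from -0.020 to 0.57, and in MOV Pax7 from -0.016 to 0.23, Myod1 from -0.089 to 0.12 and Mymx from -0.084 to 0.35. In the interaction Calcr ran from -0.30 to 0.42 and Myod1 from -0.12 to 0.076. Without vehicle MOV 2, which lay nearest the sham mice, 5 genes were called in MOV against sham with vehicle.

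The replicate numbers, taken from the sample titles, gave no sign of pairing: over 30 same-numbered pairs the correlation of deviations from the group means ran from -0.15 to 0.185 (median -0.0062), was over 0.1 in 2, and was the best of its mouse in 5. The column names carry other numbers, and sham and MOV mice paired by those were not checked. With the title number as a block 5 genes were called in MOV against sham with vehicle and 5 with D + Q, where Myf5 dropped out (0.62, edgeR adjusted p = 0.0651), and 0 in the other comparisons, while Calcr turned in the interaction (-0.12). Depth limits Calcr and, in sham, Mymk and Mymx, which had at most 23 and at most 13 counts in a mouse.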

Other observations

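The genes whose log2 CPM followed 3 of the described genes most closely over 20 mice, after each group mean was taken off, were read off among 13195 genes as a description without a test. For Pax7 they were Ago4 (r = 0.80), Rnf113a2 (0.77) and Mad2l2 (0.743). For Myod1 they were Npepl1 (0.779), Herc6 (0.75) and Gm31166 (0.736), and for Myog Serpinh1 (0.863), Trappc3 (0.854) and Med10 (0.848). Serpinh1, which encodes a collagen chaperone, also rose in MOV against sham with vehicle by 3.00 on the log2 scale (edgeR adjusted p = 1.30e-08), while Ago4 fell by 0.77 (edgeR adjusted p = 5.22e-05). The mice share libraries and scaling, and nothing is drawn from these correlations about function or control.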
